A study of Mus musculus with 8 samples.

Results

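The genes of the neuronal intermediate filaments were followed in newborn mouse brain: *Nefl*, *Nefm* and *Nefh*, which encode the light, medium and heavy neurofilament proteins, *Ina*, which encodes alpha-internexin, and *Prph*, which encodes peripherin. They were chosen by name, and all 5 were found among the 49585 genes of the count table for the B genome (C57BL/6J). Their RNA was measured in whole brains of 8 newborn B × C females (C57BL/6J mother, CAST/EiJ father), taken within the first day of life. The F1 0 ppm pups (n = 4) were born to mothers that drank water without added Cd and the F1 50 ppm pups (n = 4) to mothers given 50 ppm CdCl2 in their water before and during gestation, and the groups otherwise shared strain, sex, age and tissue. Each pup came from a different litter, so the spread given below is between litters. The comparison asks whether maternal Cd exposure altered the RNA of these filament genes at birth.

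Neurofilaments are the rope-like filaments that fill axons and set their calibre. The light, medium and heavy proteins are built into one polymer, with the light protein as its core, and alpha-internexin is a partner in the central nervous system that is made early, while axons grow. Peripherin joins neurofilaments mainly in neurons whose axons leave the brain and spinal cord, such as motor neurons, and in ganglion cells. The heavy protein accumulates late, as axons mature.

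Reads counted on genes numbered 22916434 to 30708087 per brain. Values are given as CPM, in which the counts of each library are scaled to the same total after TMM normalization (an adjustment for library composition), and the doses were compared by the quasi-likelihood method of edgeR, with p-values adjusted (Benjamini-Hochberg) over the 23113 genes that passed the filter on low counts, among them all 5 filament genes. In these libraries 3 counts, the limit that a count of 0 allows, correspond to 0.0980 to 0.132 CPM, which covers counting error only, and each of the 5 genes had at least 57 reads in every brain. A pair of control brains stood apart. The summed CPM of 9 markers of brainstem and spinal cord neurons was 17.5 and 26.3 in 0 ppm replicates 1 and 2, against 66.0 and 59.1 in 0 ppm replicates 3 and 4 and 97.8, 75.0, 59.4 and 74.3 in the 50 ppm brains. *Slc6a5* made up the largest part of that gap among controls, at 0.239, 2.38, 27.0 and 24.8 CPM in 0 ppm replicates 1 to 4. Not every marker followed it. In the same order *Fev* was at 0.649, 0.744, 0.588 and 0.348 CPM, and *Dbh* at 0.649, 1.90, 2.22 and 1.32 CPM. The summed CPM of 8 forebrain markers was 1005 and 990 in those 2 control brains, 559 and 728 in the other controls, and 713 to 896 at 50 ppm. Results are therefore given with and without 0 ppm replicates 1 and 2. In RNA from whole brain, fewer cells of a type cannot be told apart from less RNA per cell.

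RNA of 4 of the 5 genes was higher at 50 ppm at an unadjusted p under 0.05 (*Prph*, *Nefm*, *Nefl* and *Nefh*), where 2.31% of all genes tested were, and none was lower, as 1.44% of genes were. The 5 genes moved together from brain to brain within a dose (Pearson r of 0.866 to 0.967, each against a mean that includes it). The 4 are therefore not separate results. None of the 5 passed the adjusted threshold of 0.05, which 0.0173% of genes did. The median log2 fold change of the 5 genes was 0.61, and that of all genes tested was -0.003. In *Nefm* and *Prph* every exposed brain lay above every control brain, as it did in 1.19% of genes, and in the other 3 genes the groups overlapped.

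**Figure D1:**
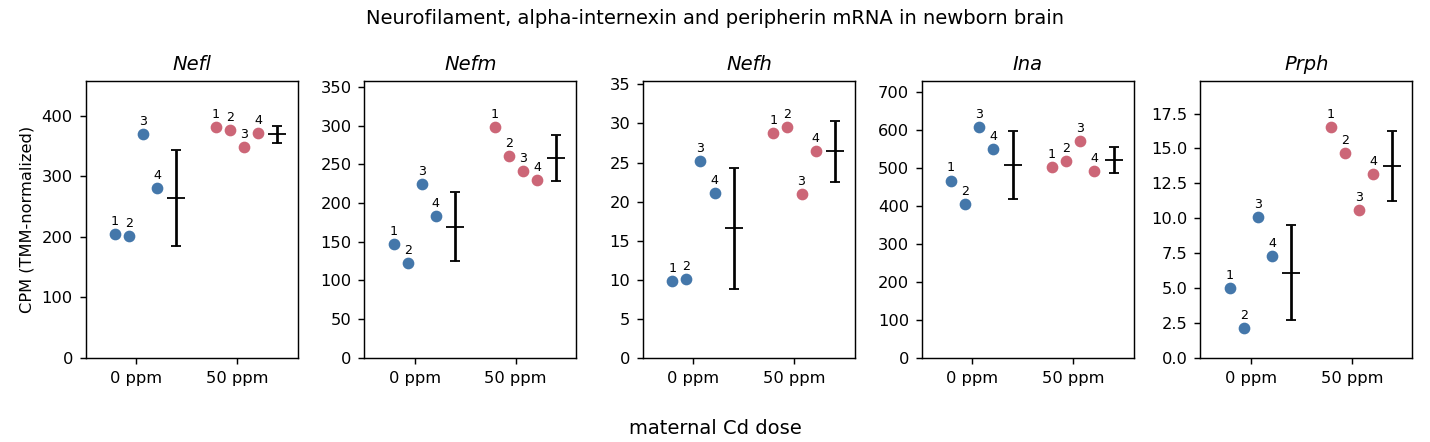
CPM of each gene (vertical axis) in each brain, for the 2 doses (horizontal axis); points are single brains numbered by replicate and the bars beside them are the mean and the SD (n = 4). The control brains spread widely, with replicates 1 and 2 lowest, and the 50 ppm brains lie closer together; the groups are separate in *Nefm* and *Prph* only.

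*Nefl* encodes the light protein on which the others assemble. Its 4 exons lie on the plus strand at chr14:68083863-68089095 (GRCm38). *Nefl* was at 204, 201, 370 and 281 CPM in the 0 ppm brains, replicates 1 to 4, and at 381, 376, 348 and 371 CPM in the 50 ppm brains. The exposed brains were nearly level, at 369 ± 14.5 CPM (SD, n = 4), while the controls fell into a low pair and a higher pair, at 264 ± 79.9 CPM in all, and 0 ppm replicate 3 lay within the exposed range. The log2 fold change was 0.48 (SE 0.14, 95% interval 0.19 to 0.77, unadjusted p = 0.0026 and adjusted p = 0.789 from edgeR).

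*Nefm* encodes the medium protein, whose long tail projects from the filament. It lies beside *Nefl* on the minus strand, at chr14:68082590-68124846, and its second annotated transcript runs past *Nefl*, so that 19.2% of the exon length of *Nefm* and 32.8% of that of *Nefl* overlap on opposite strands. The library kit keeps strand, but the strand setting of the count is not given in the sources used here, and how reads in that overlap were counted is uncertain. *Nefm* was at 148, 122, 225 and 184 CPM in the 0 ppm brains and at 298, 261, 242 and 230 CPM in the 50 ppm brains. All exposed brains were above all controls, though 50 ppm replicate 4 and 0 ppm replicate 3 were close. The means were 169 ± 44.6 and 258 ± 29.7 CPM (SD, n = 4 each), a 1.52-fold difference (95% interval 1.25 to 1.85), with an unadjusted p = 2.76e-04 and an adjusted p = 0.304 from edgeR. With the reads aligned to the C genome (CAST/EiJ), *Nefm*, the 1 gene of the 5 that could be named in that table, was at 190 ± 50.4 CPM at 0 ppm and 291 ± 34.0 CPM at 50 ppm (log2 fold change 0.61, adjusted p = 0.313 from edgeR). This is the same reads counted again: 0 ppm replicate 1 had 4325 reads on *Nefm* in one alignment and 4329 in the other.

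*Nefh* encodes the heavy protein of mature, thick axons, in 4 exons on the minus strand at chr11:4938754-4948064. *Nefh* was at 9.87, 10.1, 25.2 and 21.1 CPM in the 0 ppm brains and at 28.8, 29.5, 20.9 and 26.4 CPM in the 50 ppm brains. The first 2 controls were below the rest by more than 10 CPM, and the other controls lay among the exposed brains. The log2 fold change was 0.67 (SE 0.23, 95% interval 0.20 to 1.15, unadjusted p = 0.00834 and adjusted p = 0.999 from edgeR).

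*Ina* encodes alpha-internexin, in 3 exons on the plus strand at chr19:47014698-47025327, with 14.1% of the exon length overlapping *Nt5c2* on the opposite strand. *Ina* was at 467, 405, 607 and 550 CPM in the 0 ppm brains and at 502, 518, 570 and 492 CPM in the 50 ppm brains. The exposed brains all lay inside the range of the controls. The means were 507 ± 89.4 and 520 ± 34.6 CPM (SD, n = 4 each), and the log2 fold change of 0.04 had a 95% interval of -0.17 to 0.24 (adjusted p = 0.999 from edgeR) or, as a fold, 0.889 to 1.18. The sign of this small value was not stable: it was -0.06 without 0 ppm replicate 2, -0.001 without 0 ppm replicate 1 and -0.003 without 50 ppm replicate 3.

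*Prph* encodes peripherin, in 8 exons on the plus strand at chr15:99055174-99058978, with no overlapping gene. *Prph* was at 4.98, 2.12, 10.1 and 7.28 CPM in the 0 ppm brains, from 146, 57, 308 and 188 reads. It was at 16.5, 14.6, 10.6 and 13.1 CPM in the 50 ppm brains, from 471, 417, 297 and 298 reads. Every exposed brain was above every control, by a narrow margin between 50 ppm replicate 3 and 0 ppm replicate 3, and 0 ppm replicate 2 was far below the rest. The means were 6.11 ± 3.37 and 13.7 ± 2.50 CPM (SD, n = 4 each), a 2.24-fold difference (95% interval 1.48 to 3.38). Its log2 fold change of 1.16 (SE 0.28) was the highest of the 5, with an unadjusted p = 6.46e-04 and an adjusted p = 0.421 from edgeR.

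The outcome of the adjusted test rested on 1 control brain, on the filter and, for *Prph*, on a score of pan-neuronal markers added as a covariate (adjusted p = 0.0292 from edgeR). Without 0 ppm replicate 3, the control nearest to the exposed brains, 3 of the 5 genes passed the adjusted threshold in edgeR, where 0.088% of genes did: *Nefl* (log2 fold change 0.69, adjusted p = 0.00457), *Nefm* (0.77, adjusted p = 0.00595) and *Prph* (1.52, adjusted p = 0.0276). The controls left there included 0 ppm replicates 1 and 2, the pair low in the summed CPM of brainstem and spinal cord markers. Among the controls 0 ppm replicate 3 had the highest summed CPM of these markers (66.0) and the lowest of the forebrain markers (559). When 0 ppm replicates 1 and 2 were left out instead, the log2 fold changes were 0.18 for *Nefl*, 0.33 for *Nefm* and 0.66 for *Prph*, and none passed the adjusted threshold in edgeR. These 3 genes also passed when no gene with a count was left out, with the fold changes of the full comparison, and 0.192% of genes passed there. With DESeq2 none of the 5 passed, *Nefm* having an adjusted p = 0.0507, where 0.0779% of genes did.

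The starts of *Prph*, the gene with the highest fold change, and of *Ina*, with the lowest, are shown as the 150 bases before the RefSeq start of transcription (GRCm38.p6). RefSeq promoter sequences were matched for 2 of the 5 genes, and these are the 2. Both lie on the plus strand and are written 5′ to 3′, with capitals marking TATAAA and GGGCGG (or CCGCCC, the same letters on the other strand). *Prph* is at chr15:99055024-99055173 and *Ina* at chr19:47014531-47014680, its RefSeq start lying a little before the start in the gene annotation.
Prph: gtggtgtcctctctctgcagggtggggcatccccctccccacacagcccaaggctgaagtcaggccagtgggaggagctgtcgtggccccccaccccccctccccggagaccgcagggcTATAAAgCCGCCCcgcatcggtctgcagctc
Ina: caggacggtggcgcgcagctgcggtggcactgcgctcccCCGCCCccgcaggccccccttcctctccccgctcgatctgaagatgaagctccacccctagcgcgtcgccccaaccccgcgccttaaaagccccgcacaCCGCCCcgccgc

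The letters TATAAA, the core of a TATA box, began 31 bases before the start of *Prph*, on its own strand, and were not in the *Ina* window. They were in 12.4% of the 32851 RefSeq promoter windows of 250 bases searched on both strands. GGGCGG, a GC box, lay 24 bases before the start of *Prph* and 111 and 12 bases before that of *Ina*, on the other strand each time, and was in 32.7% of windows. CCAAT, in 33.8% of windows, was in neither. These matches are letters in a window and say nothing of which factors act there.

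Per kilobase of the principal transcript, which allows levels to be set between genes, *Ina* was the most abundant of the 5, at 157 ± 27.6 CPM per kb at 0 ppm and 161 ± 10.7 at 50 ppm (SD, n = 4 each). *Nefl* followed at 78.2 ± 23.6 and 109 ± 4.30 CPM per kb, and *Nefm* at 50.8 ± 13.4 and 77.4 ± 8.91. *Nefh* was at 4.15 ± 1.95 and 6.62 ± 0.973 CPM per kb, and *Prph* at 3.28 ± 1.81 and 7.37 ± 1.34. The spreads of *Nefh* and *Prph* overlapped at either dose, and those of *Nefl* and *Nefm* at 0 ppm only. These are spreads between brains, whereas the genes were measured in the same brains. *Nefl* was above *Nefm* within every brain, with a *Nefm* to *Nefl* ratio of CPM of 0.606 to 0.782 and principal transcripts of 3380 and 3334 bases. *Nefh* and *Prph* were not compared within brains. Over the merged exons of both of its transcripts *Nefm* was at 29.3 and 44.6 CPM per kb, which kept its place in the order.

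Within each brain the filament genes were also set against *Nefl*, since such a ratio does not depend on library scaling. The *Prph* to *Nefl* ratio of CPM was 0.0244, 0.0105, 0.0272 and 0.0259 in the 0 ppm brains and 0.0433, 0.0389, 0.0304 and 0.0354 in the 50 ppm brains. All exposed brains were above all controls, with a log2 difference of 0.83. The *Ina* to *Nefl* ratio was 2.28, 2.01, 1.64 and 1.96 in the 0 ppm brains and 1.32, 1.38, 1.64 and 1.33 in the 50 ppm brains. All exposed brains were below all controls, with a log2 difference of -0.48, though 50 ppm replicate 3 and 0 ppm replicate 3 were nearly equal. For both ratios the exact two-sided permutation test gave p = 0.0286, the smallest that 4 brains against 4 allow, and an adjusted p = 0.0571 over the 4 ratios tested. That adjusted p could be no lower unless another of the ratios had also reached the smallest p. The *Nefm* to *Nefl* ratio lay between 0.606 and 0.722 at 0 ppm and between 0.621 and 0.782 at 50 ppm (log2 difference 0.11, exact permutation p = 0.314). The *Nefh* to *Nefl* ratio lay between 0.0482 and 0.0748 at 0 ppm and between 0.0601 and 0.0785 at 50 ppm (log2 difference 0.26, exact permutation p = 0.2).

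**Figure D2:**
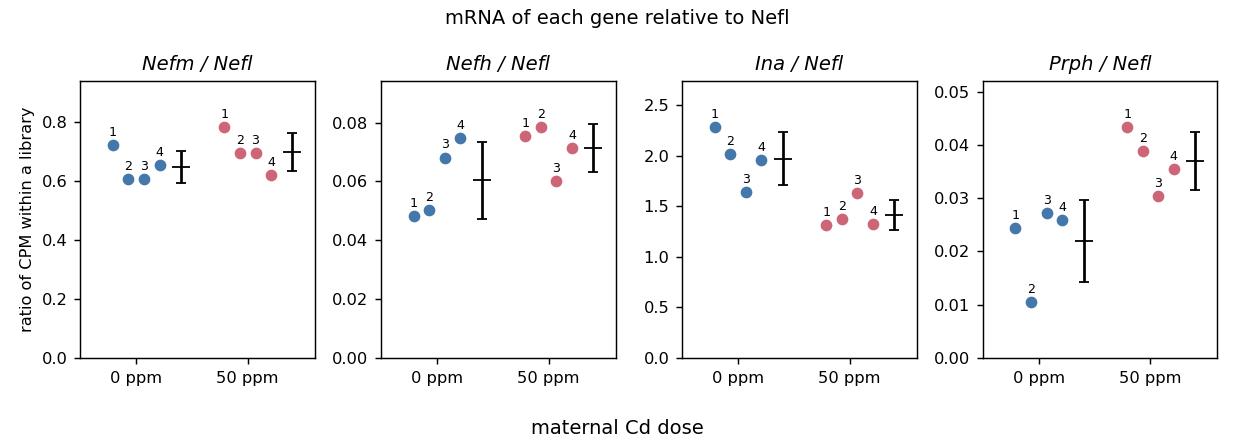
Ratio of the CPM of each gene to that of *Nefl* in the same brain (vertical axis) for the 2 doses (horizontal axis); points are single brains numbered by replicate and the bars are the mean and the SD (n = 4). The doses overlap for *Nefm* and *Nefh*, while for *Ina* all exposed brains are below the controls and for *Prph* all are above.

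The control brains were more unlike each other than the exposed brains. The SD of log2 CPM over the 4 brains was 0.42 at 0 ppm and 0.06 at 50 ppm for *Nefl*, 0.38 and 0.16 for *Nefm*, 0.70 and 0.23 for *Nefh*, 0.26 and 0.09 for *Ina*, and 0.95 and 0.27 for *Prph*. The median SD of the 10330 genes with a mean of at least 10 CPM was 0.11 at each dose. At 0 ppm the SD of *Nefh* was larger than that of 99.8% of those genes and the SD of *Ina* larger than that of 93.1%. At 50 ppm the SD was larger than that of 13.0% of those genes for *Nefl* and 37.6% for *Ina*, but of 75.8% for *Nefm*, 91.5% for *Nefh* and 96.1% for *Prph*. *Prph* itself had a mean just under 10 CPM and is not among those genes, so it was set against genes of higher level. The highest control value was 4.74 times the lowest in *Prph*, 2.56 times in *Nefh* and 1.84 times in both *Nefl* and *Nefm*.

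The lowest 2 of the 8 brains for each of the 5 genes were 0 ppm replicates 1 and 2, the same that were low in the summed CPM of brainstem and spinal cord markers. Of those 9 markers, 6 were higher at 50 ppm at an unadjusted p under 0.05 and none passed the adjusted test, with a median log2 fold change of 1.34, or 0.46 without those 2 brains. The log2 fold changes of the markers ran from -0.06 to 1.42, and 2 of the 9 were negative. The marker with the smallest p, *Glra1*, a glycine receptor subunit of spinal cord and brainstem, was at 0.41, 0.372, 2.71 and 1.28 CPM in the 0 ppm brains and between 2.63 and 3.93 CPM at 50 ppm. The median log2 fold change of the 8 forebrain markers was -0.11, with 2 lower at an unadjusted p under 0.05, and it was 0.11 without 0 ppm replicates 1 and 2.

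With the mean log2 CPM of the brainstem and spinal cord markers as a covariate, the log2 fold change was 0.11 for *Nefl* (unadjusted p = 0.321), 0.05 for *Nefh* (unadjusted p = 0.761) and -0.14 for *Ina* (unadjusted p = 0.194), from edgeR. It was 0.33 for *Nefm* (unadjusted p = 0.0252) and 0.65 for *Prph* (unadjusted p = 0.0388) in the same edgeR fit. When 0 ppm replicates 1 and 2 were left out in place of the covariate, the log2 fold change was 0.18 for *Nefl* (unadjusted p = 0.0698), 0.19 for *Nefh* (unadjusted p = 0.179), -0.16 for *Ina* (unadjusted p = 0.0604), 0.33 for *Nefm* (unadjusted p = 0.00296) and 0.66 for *Prph* (unadjusted p = 0.00115), from edgeR. These fits are not separate checks, since both act on the low marker values of 0 ppm replicates 1 and 2. The markers in the score were themselves higher at 50 ppm (median log2 fold change 1.34), so the covariate also takes out difference by dose that it shares. How much goes with dose and how much with the markers was not tested. In either fit *Nefm* and *Prph* were the 2 of the 5 genes higher at an unadjusted p under 0.05, where 2.19% and 2.24% of genes were. None of the 5 passed the adjusted threshold, which 0.013% and 0.0294% of genes did. The *Ina* to *Nefl* log2 ratio then differed by -0.35 (exact permutation p = 0.0667) and the *Prph* to *Nefl* log2 ratio by 0.47 (exact permutation p = 0.133), among 2 controls and 4 exposed brains, where 0.0667 is the smallest p possible and the threshold of 0.05 could not be reached.

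**Figure D3:**
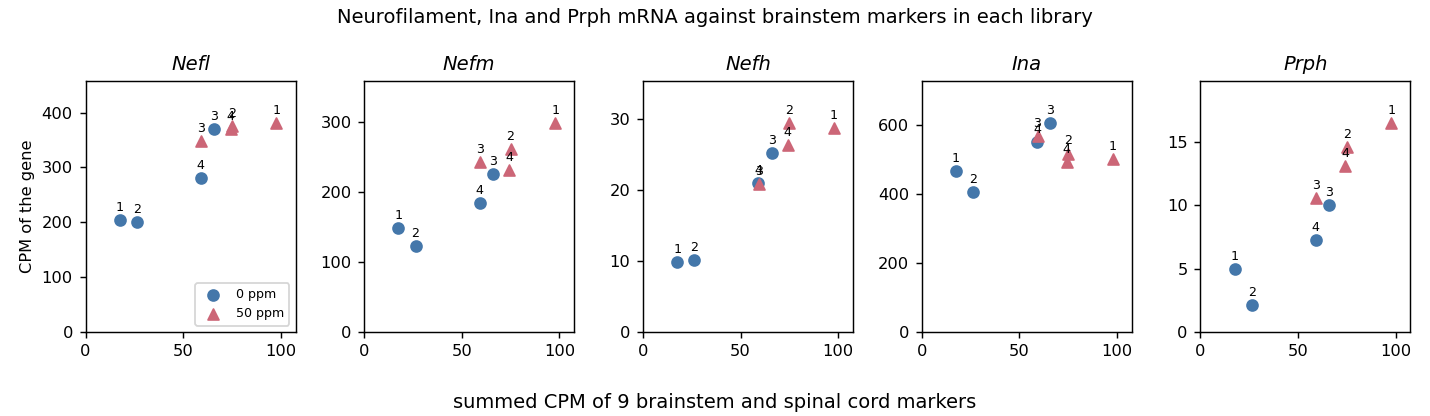
CPM of each gene (vertical axis) against the summed CPM of 9 brainstem and spinal cord markers (horizontal axis) in each of the 8 brains, circles for 0 ppm and triangles for 50 ppm, numbered by replicate. 0 ppm replicates 1 and 2 sit apart at the lower left with 17.5 and 26.3 summed CPM, and in *Prph* and *Nefm* the exposed brains are also above the other controls.

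**Figure D4:**
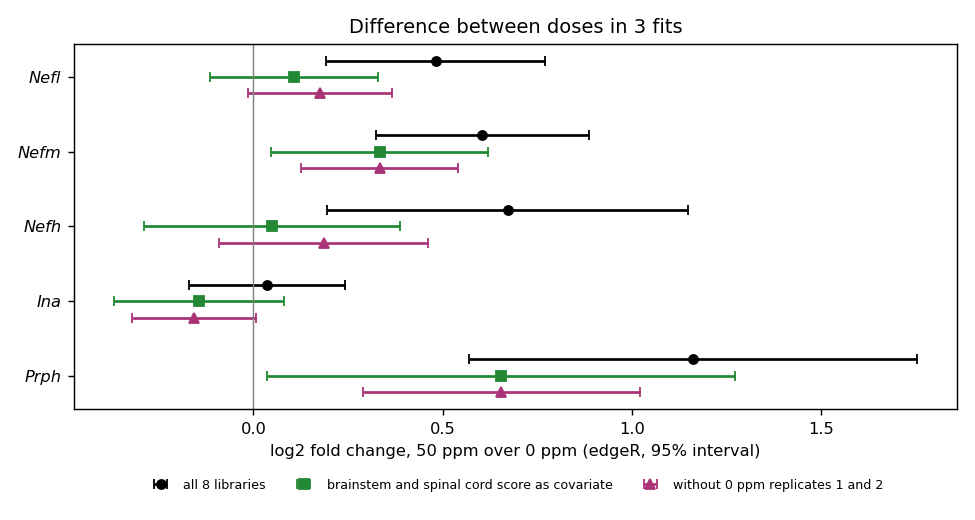
Log2 fold change of each gene, 50 ppm over 0 ppm, with its 95% interval (horizontal axis) in 3 edgeR fits. The estimates of *Nefl* and *Nefh* come close to 0 with the marker score as covariate (0.11 and 0.05), and those of *Nefm* and *Prph* stay above 0 in every fit (0.33 and 0.65 with the covariate).

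Markers of the cells outside the central nervous system in which peripherin is known were read beside *Prph*. Of 7 markers of sensory ganglia and peripheral nerve, 6 were tested and the other was at 0 in all 8 brains. Their summed CPM was 22.6 to 37.0 at 0 ppm and 32.5 to 49.6 at 50 ppm, their median log2 fold change was 0.51, and 2 were higher at an unadjusted p under 0.05. Among the 6 tested, 5 were higher on average at 50 ppm and 1 was lower, at a log2 fold change of -0.45. *Scn9a*, a sodium channel of ganglion neurons named after its values were seen, made up most of the sum and was at 25.3 ± 5.28 CPM at 0 ppm and 25.5 ± 1.87 CPM at 50 ppm (SD, n = 4 each). The marker with the highest fold change, *Drgx*, a transcription factor of ganglion and dorsal spinal cord neurons, had 4, 11, 98 and 18 reads at 0 ppm and 467, 131, 86 and 131 at 50 ppm (log2 fold change 2.71, adjusted p = 0.298 from edgeR). The part of these cells in the *Prph* values was not tested.

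Of 6 markers of cholinergic motor neurons 4 were tested and *Slc18a3*, the vesicular acetylcholine transporter, was listed at 0 throughout. Their summed CPM was 22.6 to 37.1 at 0 ppm and 25.9 to 34.1 at 50 ppm, and the median log2 fold change was 0.11, with 2 of the 4 positive and 2 negative (-0.88 to 0.57). *Isl1* made up most of that sum, at 20.4 ± 5.59 CPM at 0 ppm and 17.3 ± 2.19 CPM at 50 ppm (SD, n = 4 each). The log2 fold changes were -0.24 for *Isl1*, -0.88 for *Isl2*, 0.57 for *Chat* and 0.46 for *Slc5a7*. The marker with the smallest p, *Slc5a7*, the choline transporter, was at 6.21, 6.77, 9.89 and 9.80 CPM in the 0 ppm brains and at 11.6, 12.9, 9.49 and 11.1 CPM in the 50 ppm brains, so that for this gene the same 2 controls were the lowest (unadjusted p = 0.00888, adjusted p = 0.999 from edgeR). The 8 pan-neuronal markers summed to 2486 to 2927 CPM at 0 ppm and 2706 to 2897 CPM at 50 ppm, with a median log2 fold change of 0.02 and none past an unadjusted p of 0.05. With their score as a covariate the filament genes kept log2 fold changes of 0.44 for *Nefl*, 0.57 for *Nefm*, 0.60 for *Nefh*, 0.01 for *Ina* and 1.13 for *Prph*, and *Prph* passed the adjusted threshold in edgeR (adjusted p = 0.0292), where 0.0303% of genes did.

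Of the 13 other intermediate filament genes, 2 were higher and 1 lower at an unadjusted p under 0.05, none passed the adjusted test, and the median log2 fold change was -0.03. *Gfap*, the filament of astrocytes, was at 29.4 ± 12.3 CPM at 0 ppm and 44.3 ± 15.6 CPM at 50 ppm, with overlapping groups (unadjusted p = 0.0258 from edgeR, n = 4 each). *Nes*, the filament of neural progenitors, was at 108 ± 5.50 CPM at 0 ppm and 93.6 ± 8.90 CPM at 50 ppm, also with overlap (unadjusted p = 0.014 from edgeR, n = 4 each). *Sync*, which encodes the desmin partner syncoilin, was low, at 0.856 to 1.76 CPM at 0 ppm and 1.96 to 2.88 CPM at 50 ppm, and was the 1 gene of the list with all exposed brains above all controls (adjusted p = 0.789 from edgeR), with 27.3% of its exon length overlapping *Rbbp4* on the opposite strand. *Vim*, the filament of progenitors and glia, was at 213 ± 22.6 and 222 ± 17.7 CPM.

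Neurofilaments share the axon with microtubules and the spectrin skeleton. Of 20 genes of microtubules, motors, spectrins and linkers 19 were tested, *Tubb3*, a tubulin of neurons, being listed at 0 in all 8 brains. Their median log2 fold change was 0.02 and 3 were higher at an unadjusted p under 0.05: *Plec*, which encodes plectin, a linker that binds intermediate filaments (log2 fold change 0.19), *Tuba4a*, a tubulin (0.21, with 37.3% of the exon length overlapping *Stk16* on the opposite strand), and *Map1a*, a microtubule-associated protein (0.16). None of the 13 tested genes of neurofilament phosphorylation and turnover passed an unadjusted p of 0.05, and their median log2 fold change was -0.01. *Cdk5r1*, the activator of the kinase Cdk5, was at 615 ± 19.2 CPM at 0 ppm and 569 ± 23.3 CPM at 50 ppm, with every exposed brain below every control (unadjusted p = 0.0827 from edgeR), as in 0.904% of genes, and *Cdk5r2*, a related activator, was listed at 0. Whether the genes listed at 0, here and in the other lists, lacked RNA or lost their reads in the counting was not tested.

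**Figure D5:**
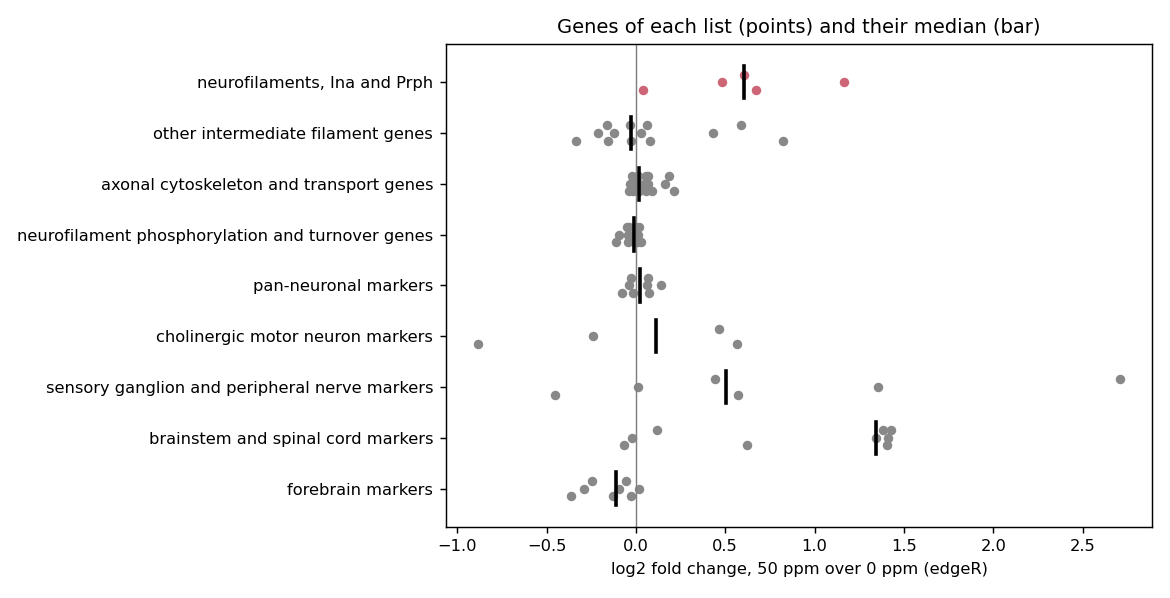
Log2 fold change, 50 ppm over 0 ppm, of each tested gene (points) of 9 gene lists, with the median of each list (bar). The medians are 0.61 for the neurofilament genes, *Ina* and *Prph* and 1.34 for the brainstem and spinal cord markers, and between -0.11 and 0.51 for the other lists.

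Genes whose level followed the 5 filament genes from brain to brain were sought among 10326 genes with a mean of at least 10 CPM, after the mean of each dose was taken out. These correlations describe 8 brains sequenced with the same library kit, rest mainly on the difference between the low and the high control brains, and carry no test. *Fxyd7*, a regulator of the sodium pump, was most like the mean of the 5 genes (Pearson r = 0.989), followed by *Lynx1*, which binds nicotinic receptors (0.983), *2610316D01Rik*, *Gdpd2*, *Ret*, the receptor of glial cell line-derived neurotrophic factor (0.977), *Dzip1*, *Ccdc184*, *Eno2*, the neuronal enolase, *Adcyap1*, a neuropeptide, and *Adra1b*, an adrenergic receptor (0.965). The filament genes themselves, each set against a mean that includes it, had r between 0.866 for *Ina* and 0.967 for *Nefm*. *Lynx1* was at 33.8 ± 8.83 CPM at 0 ppm and 46.9 ± 4.74 CPM at 50 ppm, with a log2 fold change of 0.47, close to that of *Nefl*, whereas *Fxyd7* was at 29.6 ± 6.43 and 32.1 ± 2.00 CPM (SD, n = 4 each). When the dose means were not taken out, *Lynx1* and *Ret* were the 2 of these 10 genes that stayed among the 10 most similar.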

How the data were processed

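Whole-brain poly(A) RNA of 8 newborn B × C females was sequenced as single-end reads. The authors removed the first bases of each read, used STAR for alignment to the B (GRCm38) and C genomes and deposited raw read counts per gene from htseq-count, without normalization; the references came from Ensembl, and tool versions and the strand setting are not given in the sources used here. Groups follow the labelled maternal dose. Gene names were matched for 49326 of 49585 identifiers (*Drgx* as *Prrxl1*), and coordinates are from the GRCm38 annotation.

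A gene was kept if at most 5 of the 8 libraries had a count of 0. Counts were TMM-normalized and tested with edgeR 4.0.16 (glmQLFit, glmQLFTest) in R 4.3.3 with dose as the only term, with Benjamini-Hochberg adjustment over all genes tested and a threshold of 0.05. The SE is the log2 fold change divided by the square root of F. Ratios between genes were compared by exact permutation (two-sided, all 70 labellings of the 8 libraries). P-values measure the spread between pups of different litters. Total counts of 22916434 to 30708087 per library set the precision.

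Alternatives were DESeq2 1.42.0, its size factors, no filter on low counts, at least 10 counts in at least 4 libraries, limma-voom (limma 3.58.1) with sample quality weights, marker scores (mean log2 CPM, prior count 2) as covariates, the C genome, each library left out, a prior count of 2 for the ratios and correlations without subtracting dose means. Leaving out 0 ppm replicates 1 and 2 was chosen after seeing the data.

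The genes and lists were chosen with earlier results of these data known. Named are all 5 filament genes, the other intermediate filament genes, the 4 with the smallest p of each other list, and the 10 most similar genes. *Slc6a5*, *Fev*, *Scn9a* and the markers listed at 0 were named after their values were seen. Some single genes are left unnamed. The code was tested on simulated data. Figures were drawn with matplotlib 3.10.9.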

Additional observations from a re-analysis of the deposited data

Results flagged for a closer look

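Among 18 groups of 4 brains examined for a library far from the rest (the CPM of the 5 genes and their ratios to *Nefl*, at each dose), 1 was found by Dixon's criterion at the 95% level (the gap to the nearest library over the whole range). Chance marks about 1 in 20 groups at that level, and these 18 groups share libraries and genes. The *Prph* to *Nefl* ratio of CPM of 0 ppm replicate 2 was 0.0105, from 57 reads of *Prph*, while the other controls lay between 0.0244 and 0.0272. Without this brain the *Prph* to *Nefl* log2 ratio differed by 0.51 between doses (exact two-sided permutation test, p = 0.0571, the adjusted p over the 4 ratios being 0.114), and the log2 fold change of *Prph* was 0.88 (adjusted p = 0.403 from edgeR).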

How the results depend on the processing

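*Nefm* and *Prph* kept a positive log2 fold change with an unadjusted p under 0.05 in all 17 and 16 alternatives, *Nefl* in 14 of 16 and *Nefh* in 13 of 16; *Nefl* and *Nefh* stayed positive in all. With 1 library left out the log2 fold changes lay between 0.37 and 0.69 for *Nefl*, 0.48 and 0.77 for *Nefm*, 0.49 and 0.95 for *Nefh*, -0.057 and 0.13 for *Ina*, and 0.88 and 1.52 for *Prph*, all highest without 0 ppm replicate 3. The adjusted threshold was passed in 7 cases that did not pass with all libraries and the filter: without 0 ppm replicate 3 by *Nefl*, *Nefm* and *Prph* (0.69, 0.77 and 1.52), without a filter on low counts by the same 3 (0.48, 0.61 and 1.16, with adjusted p of 0.0276, 0.00175 and 0.00307) and with the pan-neuronal score by *Prph* (1.13); why the filter moved them was not tested. *Ina* turned negative with the brainstem and spinal cord score (-0.14) and without 0 ppm replicates 1 and 2 (-0.16), as did the *Nefh* to *Nefl* log2 ratio in the latter (-0.0088, exact permutation p = 1). There the median of the brainstem and spinal cord markers was 0.46, from fewer controls.

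With 1 library left out, the log2 ratios to *Nefl* differed by -0.56 to -0.40 for *Ina*, 0.51 to 0.97 for *Prph*, 0.05 to 0.16 for *Nefm* and 0.16 to 0.37 for *Nefh*. The list medians then lay between 0.93 and 1.63 for brainstem and spinal cord, -0.25 and -0.04 for forebrain, 0.31 and 0.72 for sensory ganglion, 0.002 and 0.24 for motor neuron, -0.05 and 0.07 for pan-neuronal, -0.06 and 0.02 for other intermediate filament, 0.01 and 0.06 for axonal cytoskeleton, and -0.04 and 0.01 for phosphorylation genes. Of the 10 most similar genes, 2 remained without subtracting dose means. Over all genes, 4 were called with the full comparison and 1 (limma-voom) to 52 (no filter) in the alternatives, with 18 by DESeq2. No paired analysis was possible because each pup came from a different litter and each mother had 1 dose. The labels give no replicate numbers, and the numbers used here follow the order of the samples. With 4 litters a dose, differences of the size of that in *Ina* were within the spread.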
